A study of Mus musculus with 6 samples.

Results

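The comparison described here sets tumours of ovariectomized hosts given progesterone against tumours of ovariectomized hosts given vehicle. It rests on 4 of the 6 libraries of the series, 2 per treatment, chosen by their treatment labels, and on all genes of the deposited count table. Every tumour grew from subcutaneously implanted LLC1 cells, the Lewis lung carcinoma line, which is of C57BL/6 mouse origin, and was taken 30 days after implantation. All hosts carried a beta-hCG transgene and were offspring of C57BL/6 females (spelled CB57BL/6 in the labels) and beta-hCG transgenic FVB males. In human chorionic gonadotropin, the hormone of early pregnancy, beta-hCG is the chain that sets receptor specificity. The hosts of these 4 libraries were ovariectomized and then received progesterone or vehicle for 28 days. The other 2 libraries came from transgenic hosts for which no ovariectomy or supplement is named. They entered the model as a further group, and their values are given only beside the comparison. The labels do not give the promoter of the transgene, the dose of progesterone or the age of the hosts. Nor do they say that the 2 libraries of a group came from separate animals, so every p-value measures the spread between libraries, which may be technical. The implanted line is a single cell line, and host cells in the tumour are also of mouse, so counts do not separate tumour from host RNA. In bulk RNA, fewer cells of a type and less RNA per cell cannot be told apart.

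Progesterone is a steroid made mainly by the corpus luteum and the placenta. It acts through the nuclear progesterone receptor, a transcription factor encoded by Pgr, and binds membrane proteins of the PAQR family. It can also occupy the mineralocorticoid receptor and, at high concentration, the glucocorticoid receptor. Luteinizing hormone and chorionic gonadotropin drive ovarian progesterone output through the receptor encoded by Lhcgr, and ovariectomy takes away that source. The comparison sets tumour transcripts with progesterone given beside those with vehicle, both without the ovary.

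The libraries held between 19526775 and 30083925 counts, and both extremes were vehicle libraries. In the shallowest library 3 counts, the limit that a count of 0 allows, equal 0.159 CPM (library-size scaled counts, with TMM factors, the unit used throughout). Such limits cover counting error only. Progesterone library 2 stood apart from the other libraries on the second principal component, which held 27.4% of the variance, at 62.9 against -22.3 to 0.677. Medians of most lists are therefore also given without that library. The progesterone libraries differed from each other by a median of 0.294 on the log2 scale over the genes tested, the vehicle libraries by 0.208, and the group means by 0.191. Mitochondrial transcripts took 1.4% and 1.65% of counts in the progesterone libraries and 1.18% and 1.14% in the vehicle libraries.

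No gene differed between progesterone and vehicle tumours at an adjusted p under 0.05 by edgeR's quasi-likelihood test with Benjamini-Hochberg adjustment, 0% of the 13632 genes tested. The smallest adjusted p was 0.668. At an unadjusted p under 0.05 there were 721 genes (5.29%) with 378 higher in progesterone tumours (2.77%) and 343 lower (2.52%). Under upper-quartile scaling the split was 463 higher and 269 lower. DESeq2 called 75 of the 13103 genes for which it gave an adjusted p (0.572%), 35 higher (0.267%) and 40 lower (0.305%), whereas limma-voom called 0, with 0.536 as its smallest adjusted p. The count also depends on the filter on low counts: edgeR without it called 92 of 19288 genes (0.477%), 56 higher and 36 lower. Of these 92, 89 pass the filter and 53 are among the genes DESeq2 called. The values below describe these libraries, and genes are given as higher or lower in them. An adjusted p, where given for a single gene, is DESeq2's and is named so. For reference, 18.5% of all genes had both progesterone libraries above both vehicle libraries and 17.8% had both below, and the median log2 fold change of all genes was 0.00646. Fold changes are progesterone minus vehicle on the log2 scale, with standard errors (SE) from edgeR, and lists of values give progesterone libraries 1 and 2 and then vehicle libraries 1 and 2.

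**Figure D1:**
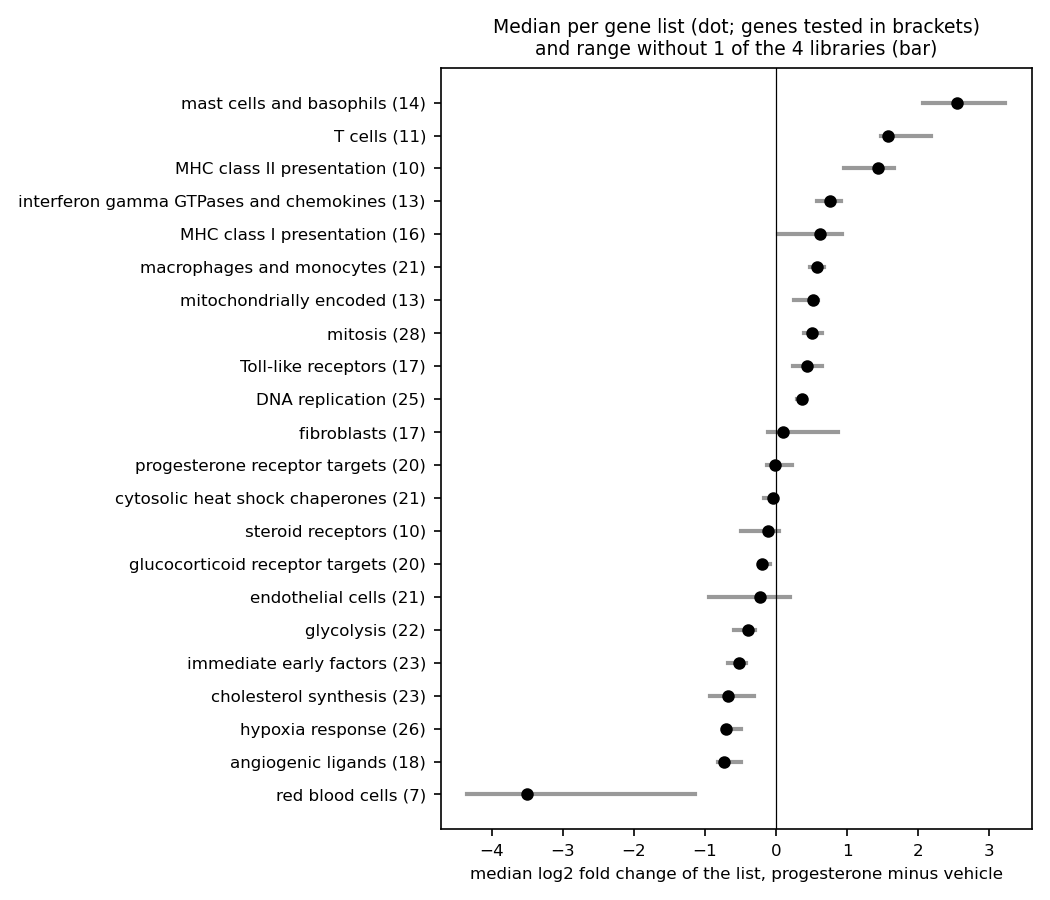
Median log2 fold change (x axis, progesterone minus vehicle) of 22 gene lists, with the number of genes tested in brackets. Bars span the medians obtained without each of the 4 ovariectomized libraries in turn. Hypoxia, glycolysis, immediate early, cholesterol and angiogenic ligand lists lie below 0 over the whole bar, the 2 cell cycle lists lie above 0, and the endothelial bar crosses 0.

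The nuclear progesterone receptor was close to undetected. Pgr had 0 counts in both progesterone libraries. Vehicle libraries had 2 and 0 counts of Pgr, transgenic libraries 3 and 0, and Lhcgr had at most 1 count in any library. Neither passed the filter on low counts. Of the 15 receptors listed, 10 passed it, and none had an unadjusted p under 0.05. The membrane-associated progesterone receptor components were abundant. Pgrmc1 had 68 and 82.1 CPM in the progesterone and 89.7 and 114 CPM in the vehicle libraries, a log2 fold change of -0.44 ± 0.23 (-0.26 without vehicle library 2), and Pgrmc2 had 88.2 and 87.4 against 91.5 and 97.7 CPM. Pgrmc1 was thus lower in both progesterone libraries by less than the model could separate from the spread. Among the PAQR receptors, Paqr7 had 34.3 and 20.02 against 24.8 and 34.2 CPM and Paqr8 7.69 and 8.81 against 4.91 and 8.003 CPM, and the groups overlapped for both. Nr3c1, the glucocorticoid receptor, had 119 and 139.7 against 169.7 and 146 CPM, which do not overlap but lie close together. The oestrogen receptor gene Esr1 ranged over 6.61 and 13.4 against 5.66 and 23.6 CPM. Esr2, the second oestrogen receptor gene, had 1.85 and 2.32 against 1.2 and 1.22 CPM. The membrane oestrogen receptor gene Gper1 had 0.116 and 0.414 against 0.618 and 0.901 CPM, and the mineralocorticoid receptor gene Nr3c2 0.193 and 0.786 against 0.618 and 0.212 CPM, so both were rare in every library. Log2 fold changes of the 10 receptors ran from -1.5 (Gper1) to 0.78 (Esr2).

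Genes that the progesterone receptor is known to regulate in uterus or mammary gland did not lie on 1 side. Of 26 listed, 20 passed the filter, 10 were higher and 10 lower, and the median log2 fold change was -0.02 (-0.13 without progesterone library 2 and 0.22 without vehicle library 2). Fold changes ran from -1.21 for follistatin (Fst), an activin antagonist, to 1.02 for the hedgehog ligand Ihh, which had 0.618 and 0.414 against 0.24 and 0.265 CPM. Fst had 6.41 and 6.58 against 2.13 and 28 CPM, with vehicle library 2 far above the rest, and its fold change was 1.61 without that library. Tnfsf11, which encodes RANKL, the paracrine mediator of progesterone in the breast, had 2.51 and 3.14 against 0.858 and 1.96 CPM. Its 2 progesterone values lay above both vehicle values at a low level. Cyclin D1 (Ccnd1) had 484 and 404 against 351 and 403 CPM and amphiregulin (Areg) 82.1 and 44.4 against 106 and 74.2 CPM. Greb1, a co-factor of steroid receptors, varied more within groups than between them, with 2.51 and 11.3 against 18.7 and 4.29 CPM.

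Glucocorticoid receptor targets were followed because progesterone can bind that receptor. Of 20 tested, 7 were higher and 13 lower, with a median of -0.20 (-0.23 without progesterone library 2 and -0.09 without vehicle library 1). Fkbp5, a co-chaperone of steroid receptors, had 172 and 157 against 180.4 and 162 CPM, with overlapping groups, and Tsc22d3, which encodes GILZ, had 61.6 and 43.3 against 36.6 and 37.6. Klf9, a Krüppel-like repressor, was lower in both progesterone libraries, at 39.9 and 32.6 against 72 and 49.1 CPM (log2 fold change -0.74 ± 0.22; -0.44 without vehicle library 1), as was Errfi1, a feedback inhibitor of the EGF receptor, at 309.6 and 286 against 618 and 565 CPM (-0.99 ± 0.34). The metallothionein Mt1 had 154 and 157 against 249 and 352 CPM, and Mt2 155 and 182 against 296 and 389.9 CPM, so both progesterone values of each lay below both vehicle values. The palindromic hormone response element bound by both the progesterone and the glucocorticoid receptor was searched on both strands in the 250 bases before the start of 10519 tested genes with a RefSeq promoter entry. It occurred in 0.266% of them, in 0 of 14 progesterone target promoters and in 1 of 16 glucocorticoid target promoters.

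**Figure D2:**
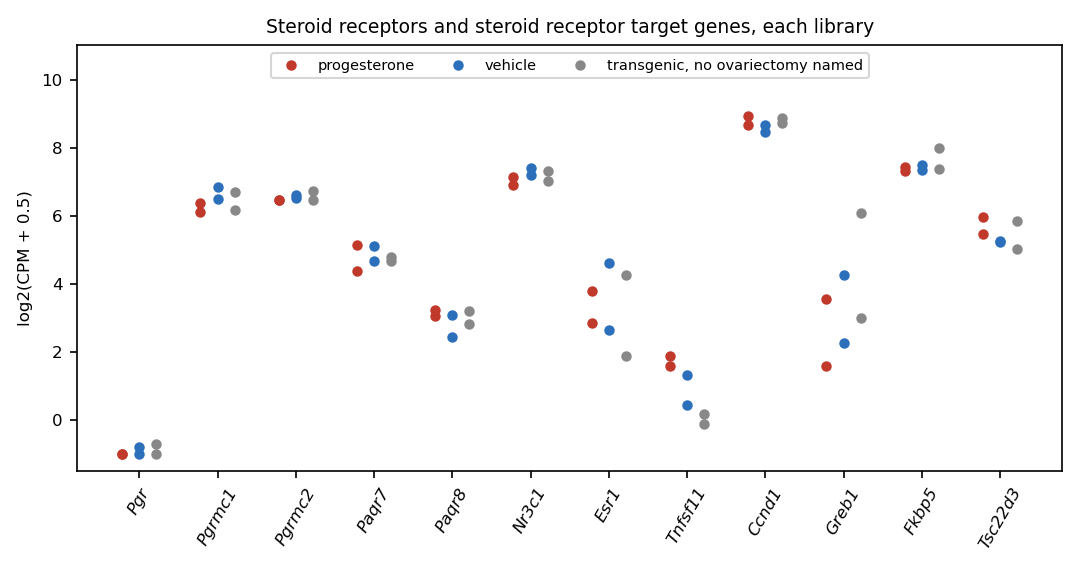
Level of steroid receptors and of target genes in each library, as log2(CPM + 0.5), with progesterone, vehicle and transgenic libraries in 3 colours. Pgr lies at the bottom of the scale in every library, and Greb1 and Esr1 spread within each treatment.

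Genes of the hypoxia response were lower in the progesterone tumours. Cells short of oxygen stabilise HIF-1α and HIF-2α, which bind an ACGTG core and switch on glucose uptake, glycolysis, vessel growth signals and the prolyl hydroxylases that feed back on HIF itself. Of 26 listed genes, all passed the filter, 22 had a negative and 4 a positive fold change, and 20 had both progesterone libraries below both vehicle libraries, against 17.8% of all genes. The median log2 fold change was -0.70, and it was -0.75 without progesterone library 2 (24 of 26 lower) and -0.49 without progesterone library 1 (21 of 26 lower). With unadjusted p under 0.05 there were 13 lower and 2 higher members, against 2.52% and 2.77% of all genes. DESeq2 called 4, all lower, against 0.305% of all genes called lower.

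The promoters of 3 members are shown because they hold the core to which HIF binds. Each line gives the 250 bases before the transcription start, 5′ to 3′ on the gene's strand, from RefSeq on GRCm38.p6, and capitals mark ACGTG on either strand. Where the core reads CACGTG both strands match, as in Bnip3, and this 6-base form is also the E-box bound by other factors.
Egln1, chr8:124949255-124949504, minus strand: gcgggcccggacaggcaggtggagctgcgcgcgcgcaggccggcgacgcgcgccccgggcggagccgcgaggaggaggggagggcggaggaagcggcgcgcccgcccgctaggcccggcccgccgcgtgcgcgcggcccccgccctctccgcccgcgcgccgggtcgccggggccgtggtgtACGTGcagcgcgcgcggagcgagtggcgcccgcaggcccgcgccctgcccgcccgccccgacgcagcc
Bnip3, chr7:138909507-138909756, minus strand: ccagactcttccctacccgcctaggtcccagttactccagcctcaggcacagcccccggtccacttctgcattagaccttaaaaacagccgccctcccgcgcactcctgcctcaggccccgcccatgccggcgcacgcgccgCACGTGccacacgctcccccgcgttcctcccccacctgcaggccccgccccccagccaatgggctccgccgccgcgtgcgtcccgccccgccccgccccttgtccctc
Egln3, chr12:54203875-54204124, minus strand: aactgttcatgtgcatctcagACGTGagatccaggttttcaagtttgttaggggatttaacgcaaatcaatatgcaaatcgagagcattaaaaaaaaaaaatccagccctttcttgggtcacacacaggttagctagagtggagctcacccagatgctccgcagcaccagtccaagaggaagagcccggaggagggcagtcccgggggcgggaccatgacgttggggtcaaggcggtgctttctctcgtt
The match begins 68 bases before the start in Egln1 and 229 bases before it in Egln3. Of the hypoxia list, 10 of 20 promoters with an entry held the core, of glycolysis genes 8 of 21 (38.1%), and of all 10519 promoters 21.2%. A match is a description of the sequence and does not show binding.

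The oxygen sensors themselves were among the members with the smallest p. Egln3, which encodes the prolyl hydroxylase PHD3 (chromosome 12, 54178981 to 54203860), had 204 and 244 CPM in the progesterone libraries and 582 and 465 CPM in the vehicle libraries (log2 fold change -1.23 ± 0.19, DESeq2 adjusted p = 9.99e-07). Egln1, which encodes PHD2, had 99.7 and 105 against 186 and 161 CPM (-0.76 ± 0.15, DESeq2 adjusted p = 0.00329). Both genes were lower in each progesterone library than in each vehicle library. Ero1l, an oxidase of disulfide formation in the endoplasmic reticulum, had 209 and 245 against 643 and 449.5 CPM (-1.27 ± 0.27). Bnip3, a mitophagy receptor, had 166 and 162 against 311 and 260.2 CPM, and its relative Bnip3l 137 and 138 against 184 and 177 CPM. The collagen prolyl hydroxylase gene P4ha1 had 203 and 235 against 315 and 355 CPM and Ndrg1, a stress-induced gene, 242 and 257 against 517 and 487 CPM. For each of these the groups do not overlap. Exceptions on the list were Lox, a collagen crosslinking enzyme, at 1.39 and 80.5 against 1.24 and 1.59 CPM, which was high in progesterone library 2 alone, Nxpe5, at 17.9 and 41.2 against 10.5 and 9.33 CPM, and the nuclear receptor gene Rora, at 2.16 and 10.1 against 3.12 and 3.07 CPM (-0.52 without progesterone library 2). Pfkfb3, a regulator of glycolytic flux and the fourth member above 0, had a fold change of 0.01, and its relative Pfkfb4 of -0.01.

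Glycolytic enzymes and transporters lay lower as well, with a smaller median of -0.40 over 22 genes, 21 of them lower and 13 without overlap. Without progesterone library 2 it was -0.30, with 18 of 22 lower. The 4 members with an unadjusted p under 0.05 were all lower, against 2.52% of all genes, and DESeq2 called 1 member. Hexokinase 2 (Hk2), which traps glucose in the cell, had 197 and 189 against 408 and 289.5 CPM (-0.85 ± 0.22, DESeq2 adjusted p = 0.0499). Glucose-6-phosphate isomerase (Gpi1) had 823 and 708 against 1438 and 1122 CPM, the platelet-type phosphofructokinase Pfkp 147 and 125 against 179 and 192 and the glucose transporter Slc2a1 630.4 and 368 against 919 and 796. Slc2a1 differed most in progesterone library 2: its log2 fold change was -0.78 in all libraries and -0.44 without that library. The fold changes farthest below 0 were those of the aldolase Aldoc, at 5.72 and 2.15 against 13.7 and 4.19 CPM with overlapping groups (-1.18 ± 0.67), and of Gapdh, at 41.2 and 35.2 against 96 and 50.4 CPM (-0.94 ± 0.63), and neither had an unadjusted p under 0.05. Gapdh has many pseudogene copies, so its counts are uncertain. Phosphoglycerate kinase (Pgk1) had 775 and 673 against 902 and 1013 CPM and pyruvate kinase (Pkm) 3173 and 2499.5 against 3476 and 4024. Lactate dehydrogenase A (Ldha) had 1672 and 1222 against 1608 and 1716 CPM, with overlapping groups. In the transgenic libraries Egln3 had 348 and 328, Hk2 225 and 179.96 and Slc2a1 402 and 256 CPM. Comparisons with the transgenic libraries share those libraries with each other, and each shares the vehicle or the progesterone libraries with progesterone minus vehicle, so they are not independent of it. The hypoxia list had a median of 0.54 for vehicle minus transgenic and of 0.03 for progesterone minus transgenic, and glycolysis 0.38 and 0.03.

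Cell cycle genes were higher in the progesterone tumours. All 25 DNA replication genes tested had a positive fold change, 24 of them with no overlap of the groups against 18.5% of all genes, and the median was 0.36. Of 28 mitosis genes, 27 were higher and 24 without overlap, with a median of 0.50. Leaving out progesterone library 2 gave medians of 0.32 and 0.40, with 25 of 25 and 27 of 28 higher. At an unadjusted p under 0.05 there were 9 replication and 11 mitosis genes, all higher, against 2.77% of all genes. DESeq2 called 0 of the replication genes and 1 of the mitosis genes.

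Among replication genes, the flap endonuclease Fen1 had 67.2 and 71.1 against 44.1 and 50.03 CPM (0.56 ± 0.15). Cyclin E2 (Ccne2), which drives entry into S phase, had 26 and 28.1 against 15 and 17.8 CPM, and thymidylate synthase (Tyms) 33.2 and 35.4 against 19.5 and 25.8. Of the replicative helicase, Mcm2 to Mcm7 were all higher, with fold changes from 0.23 for Mcm6 to 0.53 for Mcm4. Rrm2, a subunit of ribonucleotide reductase, had 90.6 and 83.3 against 77.7 and 76.5 CPM in the ovariectomized hosts and 157 and 163 CPM in the transgenic libraries. Pcna, the polymerase clamp, had 194 and 182 against 141 and 172 CPM.

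Of the mitotic genes, Gtse1, a microtubule-binding protein of G2 and S phase, differed with the smallest p. It had 58.5 and 58.5 CPM in the progesterone libraries and 32.4 and 31.1 CPM in the vehicle libraries (0.88 ± 0.17, DESeq2 adjusted p = 0.00216). Cyclin B1 (Ccnb1), the partner of Cdk1, had 79 and 96.3 against 55.9 and 59.1 CPM (0.61 ± 0.16). Cdc20, an activator of the anaphase-promoting complex, had 96 and 84.3 against 47.9 and 62.9 CPM, and the kinase Plk1 50.9 and 54 against 30.6 and 36.4. The groups do not overlap in Gtse1, Ccnb1, Cdc20 or Plk1. The proliferation marker Mki67 had 286 and 367 against 195 and 234 CPM, and topoisomerase 2α (Top2a) 349 and 465 against 265 and 325. Outside both lists, the histone chaperone Dnajc9 had 50.03 and 50.1 against 27.6 and 27.9 CPM (0.85 ± 0.17). By list medians the transgenic group lay above both ovariectomized groups in replication and mitosis: progesterone minus transgenic medians were -0.22 and -0.32, and vehicle minus transgenic medians -0.63 and -0.82. Not every transgenic library did so in the mitosis list. Its mean log2(CPM + 0.5) was 6.13 and 6.59 in the transgenic libraries and 6.03 and 6.21 in the progesterone libraries.

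Mitotic promoters are known for CCAAT boxes bound by NF-Y and for the cell cycle homology region TTTGAA bound by the MuvB complex. The 250 bases before the start of 2 of them are shown, with capitals for TTTGAA in Cdc20 and for CCAAT in Ccnb1, on either strand.
Cdc20, chr4:118437344-118437593, minus strand: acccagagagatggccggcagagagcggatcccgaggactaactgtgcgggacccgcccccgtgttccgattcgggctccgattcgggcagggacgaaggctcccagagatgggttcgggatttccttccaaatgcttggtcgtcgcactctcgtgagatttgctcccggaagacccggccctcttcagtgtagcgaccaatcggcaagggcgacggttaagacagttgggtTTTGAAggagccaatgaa
Ccnb1, chr13:100786487-100786736, minus strand: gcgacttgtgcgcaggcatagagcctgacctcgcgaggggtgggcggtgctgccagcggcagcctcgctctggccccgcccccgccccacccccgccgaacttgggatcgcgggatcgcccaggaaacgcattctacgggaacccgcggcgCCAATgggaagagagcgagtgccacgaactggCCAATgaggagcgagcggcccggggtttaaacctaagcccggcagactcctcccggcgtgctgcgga
CCAAT was present in 21 of 24 mitosis promoters (87.5%) and 12 of 19 replication promoters (63.2%), against 36.5% of all promoters. TTTGAA was present in 9 of 24 mitosis promoters (37.5%) and 10.7% of all.

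Immediate early transcription factors, which many stimuli switch on within minutes, were lower in the progesterone tumours. Of 23 tested, 22 were lower, 17 of them without overlap, and the median was -0.52 (-0.42 without progesterone library 2). Egr1, a zinc finger factor, had 18 and 18 CPM in the progesterone libraries and 53.9 and 55.1 CPM in the vehicle libraries (-1.6 ± 0.26, DESeq2 adjusted p = 6.27e-05). Replicates of Egr1 agreed closely in both treatments. Atf3, a stress-induced repressor, had 15.7 and 14.8 against 54 and 35.9 CPM (-1.56 ± 0.28), Maff 44.7 and 31.1 against 76.8 and 67.1 CPM, and Fos 18.5 and 20.7 against 50.7 and 38.9 CPM. Its paralogue Fosb had 2.51 and 7.24 against 72.1 and 14.9 CPM, where vehicle library 1 alone was far above the rest; leaving it out took the fold change from -3.16 to -1.62. Jun itself had 319.9 and 213 against 298 and 364 CPM, and its groups overlap. 

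Of the heat shock chaperones listed, Hspa1a, Hspa1b and Dnajb1 had an unadjusted p under 0.05, all lower, against 2.52% of all genes. The list of 21 had a median of -0.05, with 7 higher and 14 lower. The median was -0.16 without progesterone library 1, -0.14 without progesterone library 2, -0.17 without vehicle library 1 and -0.02 without vehicle library 2. Hspa1a had 10.04 and 15 against 37.6 and 32 CPM (-1.48 ± 0.28), Hspa1b 20.2 and 35.4 against 69.5 and 78.8 CPM (-1.42 ± 0.28), and their co-chaperone Dnajb1 83.5 and 69.4 against 112 and 133 CPM. All 3 were lower in each progesterone library than in each vehicle library. The constitutive Hspa8 had 2303 and 1947 against 2194 and 2270.2 CPM, Hsp90ab1 4630.5 and 3715 against 4228 and 4067, and Hsph1 168 and 195 against 153 and 218, all with overlapping groups. Of other heat-inducible members, Bag3 had 111 and 94.6 against 105 and 123 CPM and Hspb1 2.16 and 7.9 against 1.92 and 3.66 CPM, also with overlap. Hspa1a and Hspa1b are near-identical copies that lie side by side on chromosome 17, and reads may be split between them in ways the counts do not show. Their promoters illustrate this, with capitals for the heat shock element core GAANNTTC on either strand.
Hspa1a, chr17:34972157-34972406, minus strand: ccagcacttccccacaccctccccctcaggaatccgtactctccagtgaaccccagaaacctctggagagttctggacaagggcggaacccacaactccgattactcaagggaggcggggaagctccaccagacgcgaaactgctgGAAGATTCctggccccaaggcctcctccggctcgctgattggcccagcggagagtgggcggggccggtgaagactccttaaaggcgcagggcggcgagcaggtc
Hspa1b, chr17:34959239-34959488, minus strand: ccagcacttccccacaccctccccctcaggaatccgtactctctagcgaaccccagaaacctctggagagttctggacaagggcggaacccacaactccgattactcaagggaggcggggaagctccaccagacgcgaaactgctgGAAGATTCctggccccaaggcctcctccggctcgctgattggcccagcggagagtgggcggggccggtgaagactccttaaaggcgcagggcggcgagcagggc
The 2 windows are identical at 247 of 250 positions, and both hold the element 104 bases before the start. It occurred in 5 of 17 chaperone promoters (29.4%) and 4.94% of all promoters.

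Genes of cholesterol synthesis were lower in the progesterone tumours, with a dependence on vehicle library 1. The pathway is switched on together by SREBP-2 when sterol in the endoplasmic reticulum is low. Of 23 tested, 21 were lower, 15 of them without overlap, against 17.8% of all genes. At an unadjusted p under 0.05 there were 12, all lower, against 2.52% of all genes, and DESeq2 called 0. The median was -0.68. Without vehicle library 1 it was -0.31, without vehicle library 2 it was -0.93, and without progesterone library 2 it was -0.47. Hmgcs1, which makes HMG-CoA, had 84.8 and 76 against 179 and 105 CPM (-0.82 ± 0.26; -0.4 without vehicle library 1). Squalene epoxidase (Sqle), which oxidises squalene, had 87.2 and 60.2 against 166 and 95.3 CPM. In both the highest value was that of vehicle library 1. Sc5d, a late desaturase of the pathway, differed with the smallest p in the list, at 60.6 and 54.8 against 107 and 86.4 CPM. Stearoyl-CoA desaturase 1 (Scd1), of fatty acid synthesis, had tight replicates, at 98 and 98.3 against 174 and 164 CPM (-0.78 ± 0.16, DESeq2 adjusted p = 0.00269). The fatty acid and lipid list that holds Scd1 had a median of -0.17 over 21 genes, 15 of them lower, and of -0.04 without progesterone library 2 and -0.07 without vehicle library 1. In the Hmgcs1 promoter, shown because it is the member with a match, capitals mark the sterol regulatory element TCACNCCAC.
Hmgcs1, chr13:119690101-119690350, plus strand: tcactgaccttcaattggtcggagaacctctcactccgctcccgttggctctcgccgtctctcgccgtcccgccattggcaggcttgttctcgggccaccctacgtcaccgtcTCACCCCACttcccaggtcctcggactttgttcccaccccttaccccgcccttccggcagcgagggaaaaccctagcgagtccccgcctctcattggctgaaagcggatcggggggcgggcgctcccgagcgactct
That element was found in 1 of 16 promoters of the list and 0.989% of all, whereas CCAAT was found in 15 of 16 (93.8%).

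**Figure D3:**
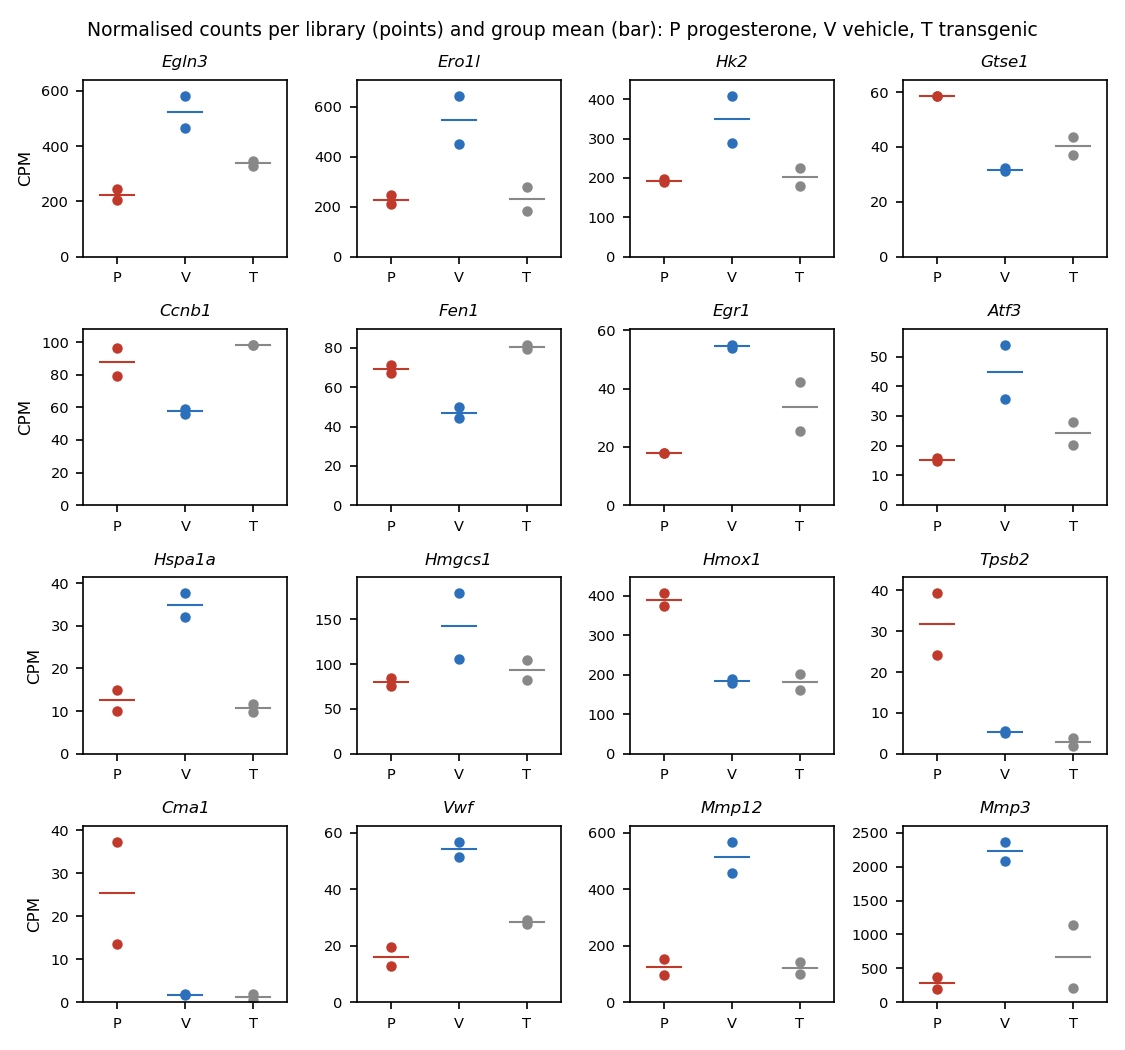
Normalised counts (CPM, y axis from 0) of 16 genes in each library, as points, with group means as bars, for progesterone (P), vehicle (V) and transgenic (T) tumours. Egln3, Ero1l, Hk2, Egr1, Atf3, Hspa1a, Hmgcs1, Vwf, Mmp12 and Mmp3 are lower in both progesterone libraries than in both vehicle libraries, and Gtse1, Ccnb1, Fen1, Hmox1, Tpsb2 and Cma1 are higher.

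Proteases of connective tissue mast cells were higher in both progesterone libraries. Mast cells store tryptases, chymases and carboxypeptidase A3 in granules, and these transcripts are made by few other cells. Of 14 mast cell and basophil genes tested, 11 were higher, 10 without overlap, with a median log2 fold change of 2.55 (2.14 without progesterone library 2). DESeq2 called 6 of them, all higher, against 0.267% of all genes called higher. The tryptase Tpsb2 had 24.1 and 39.3 against 5.11 and 5.67 CPM (2.56 ± 0.41, DESeq2 adjusted p = 4.19e-06), and Tpsab1, a related copy whose reads may be shared, 29.3 and 27.1 against 7.2 and 6.15 CPM. The chymase Cma1 had 13.5 and 37.2 against 1.89 and 1.75 CPM (3.8 ± 0.7; 2.89 without progesterone library 2), Cpa3 14.7 and 46.9 against 1.54 and 3.02, and Mcpt4 17.9 and 39.4 against 1.65 and 2.28. Progesterone library 2 was the higher of its group in Tpsb2, Cma1, Cpa3 and Mcpt4, and library 1 still lay above both vehicle libraries in each. The receptors followed at lower levels: of 2 chains of the IgE receptor, Fcer1a had 1.47 and 5.09 against 0.343 and 0.265 CPM and Ms4a2 1.78 and 2.9 against 0.515 and 0.265 CPM. Mrgprb1, a receptor of the Mas-related family, had 2.51 and 5.09 against 0.446 and 0.318 CPM. Genes that mast cells share with other cells did not follow: Kit had 8.62 and 15.1 against 15 and 15.7 CPM, Hdc 32.5 and 23.1 against 24.1 and 26.2 and Gata2 41.9 and 51.5 against 49.8 and 49. Mcpt8, a basophil protease, went the other way, at 0.0386 and 0.29 against 4.01 and 2.23 CPM (-4.23 ± 1.14; -3.42 without progesterone library 1). Summed over the list, progesterone libraries held 190.1 and 296.8 CPM, vehicle libraries 112.5 and 112.9 CPM, and transgenic libraries 98.42 and 98.96 CPM.

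Hmox1 and Slc40a1, of haem breakdown and iron export, were also higher. Hmox1, which encodes haem oxygenase 1 and had the smallest p of all higher genes, had 373 and 406 CPM in the progesterone libraries and 180.1 and 188 CPM in the vehicle libraries (1.08 ± 0.17, DESeq2 adjusted p = 5.27e-06), with 202 and 162 CPM in the transgenic libraries. Replicates differed by far less than the groups. Slc40a1, the iron exporter ferroportin, had 15.3 and 14.9 against 1.99 and 6.1 CPM (1.91 ± 0.53; 1.3 and 2.91 without vehicle libraries 1 and 2). Ceruloplasmin (Cp), which oxidises exported iron, was lower, at 35.2 and 35.7 against 91 and 93.7 CPM (-1.38 ± 0.44). The ferritin heavy chain and the transferrin receptor showed no such separation, with 1890.2 and 1438 against 1689 and 1542 CPM for Fth1 and 116 and 104 against 107 and 73.4 for Tfrc. Cd163, the haemoglobin scavenger receptor, was high in progesterone library 2 alone, at 4.29 and 126 against 3.57 and 0.848 CPM. Over the 17 iron genes tested the median was 0.05 (0.23 without progesterone library 2).

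Macrophage genes were mostly higher in the progesterone tumours. Of 21 tested, 17 were higher and 14 without overlap, with a median of 0.58 (0.67 without progesterone library 2). The other 4 were lower, 3 of them without overlap. Csf1r, the receptor for the macrophage growth factor CSF-1, had 135 and 139.8 against 81.2 and 89.5 CPM (0.69 ± 0.25), and Cd68 119 and 96.2 against 59.5 and 65.8 CPM. The complement genes C1qa, C1qb and C1qc had log2 fold changes of 0.55, 0.57 and 0.58. Marco, a scavenger receptor, was nearly absent from the vehicle libraries, at 2.47 and 4.92 against 0.0686 and 0.053 CPM, vehicle values that lie under the limit of 3 counts. Osteopontin (Spp1) was 1 of the 3 lower members without overlap, at 1798 and 1152 against 4134 and 2039.7 CPM (-1.07 ± 0.46, and -0.47 without vehicle library 1). With Spp1 included, the summed level of the list was 5058 and 4122 CPM in the progesterone and 6116 and 4191 CPM in the vehicle libraries. The transgenic libraries differed from each other, with 59.5 and 103 CPM for Csf1r and 38.2 and 78.1 for Cd68. Of 21 chemokines tested 15 were higher, with a median of 0.47 that was 1.20 without vehicle library 1. Ccl9 had 107 and 132 against 70.5 and 57 CPM (0.9 ± 0.2, DESeq2 adjusted p = 0.0289), Ccl6 174 and 326 against 127 and 74.6 and Ccl8 27.3 and 130.1 against 3.36 and 3.02 CPM. Ccl2, in contrast, had 334 and 170.4 against 709 and 282 CPM.

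T and B cell transcripts were rare in these libraries, and most of those measured were higher in the progesterone tumours. Of 18 T cell genes 11 passed the filter, none above 4.88 CPM in any of the 4 libraries, and 10 were higher with a median of 1.57 (1.63 without progesterone library 2 and 2.18 without vehicle library 1). Only 2 of the 11 had at least 10 counts in every library, and the median of these 2 was 0.21. Of 12 B and plasma cell genes 4 passed, and 3 of them were higher, but only 1 had at least 10 counts in every library. Dendritic cell genes were higher in 9 of 13 with a median of 0.76 (0.35 without vehicle library 1, and 0.36 over the 9 with at least 10 counts in every library), while their summed level was 511.0 and 708.9 CPM against 663.9 and 864.3 CPM. Cd4 had 1.7 and 1.32 against 0.172 and 0 CPM and Cd8a 0.657 and 0.372 against 0.172 and 0. Genes with 0 counts in both vehicle libraries numbered 4 among all tested genes (0.0293%). They were Siglech, a receptor of plasmacytoid dendritic cells, Ighg1, an immunoglobulin heavy chain, the interferon-induced ubiquitin relative Ubd and the growth factor Gdf10. Siglech had 37 and 40 counts in the progesterone libraries, and Gdf10 had 35 and 25. Taking 3 counts in both vehicle libraries together as the floor, Siglech was at least 24.7-fold and Gdf10 at least 19.1-fold higher. Ighg1 had 5 and 46 counts and Ubd 12 and 1, so each of these rested mostly on 1 library. No tested gene had 0 counts in both progesterone libraries. Jchain, of secreted antibody, had 0.966 and 4.18 against 0.103 and 0.053 CPM, and Ccl22, a dendritic cell chemokine, 3.17 and 1.57 against 0.686 and 0.318 CPM.

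Genes that interferon gamma induces lay higher together, and more in progesterone library 1. Of 13 guanylate-binding, immunity-related GTPase and chemokine genes tested, 13 were higher and 10 without overlap, with a median of 0.76 (0.57 without progesterone library 1 and 0.88 without library 2). Iigp1, a GTPase that attacks parasite vacuoles, had 13 and 7.45 against 2.4 and 2.65 CPM (2.02 ± 0.64). Ciita, the master activator of MHC class II, had 4.06 and 2.9 against 0.686 and 0.795 CPM, and its target H2-Aa 24.6 and 15.3 against 5.42 and 5.99. Class II genes had a median of 1.43 over 10 (0.95 without progesterone library 1), and class I genes of 0.62 over 16. The class I median was 0.03 without progesterone library 1, so it rests on that library, and 0.29 without vehicle library 1. Transgenic library 2 exceeded every ovariectomized library in Iigp1 and H2-Aa, with 12.4 and 49.8 CPM for Iigp1 and 6.26 and 55 CPM for H2-Aa. Toll-like receptors, sensors of microbial products, had a median of 0.44 over 17 genes, 15 of them higher, and of 0.24 without progesterone library 1 or without vehicle library 1. Tlr2 had 25.3 and 22 against 14.6 and 15.5 CPM, Tlr1 8.07 and 8.32 against 3.33 and 4.4 and Tlr7 11.4 and 13.4 against 5.69 and 5.35, none overlapping, whereas Tlr4 had 68.4 and 68 against 60.03 and 73.2 CPM. The type I interferon list gave 0.25 over 25 genes, and 0.09 without progesterone library 2.

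Signals for vessel growth were lower in the progesterone tumours. Of 18 angiogenic ligands, 15 were lower and 11 without overlap, with a median of -0.73 (-0.82 without progesterone library 2, and -0.47 by limma-voom). DESeq2 called 5, all lower, against 0.305% of all genes called lower. Angiopoietin 2 (Angpt2), which destabilises vessels, had 12.8 and 20.4 against 39.7 and 51.7 CPM (-1.46 ± 0.28), and placental growth factor (Pgf) 9.89 and 17.2 against 59.3 and 43.1 CPM (-1.92 ± 0.39). Vegfa had 66.1 and 112 against 186 and 172 CPM, and adrenomedullin (Adm) 98.6 and 96.7 against 286 and 193. Progesterone library 1 was the lower of its group in Angpt2, Pgf and Vegfa. Hbegf, a ligand of the EGF receptor, had close replicates, at 42.8 and 40.3 against 76.1 and 75.2 CPM (-0.86 ± 0.15, DESeq2 adjusted p = 6.77e-05). Vegfb, Vegfc and Vegfd had log2 fold changes of 0.03, -0.3 and 0.25.

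A ligand and its receptor differed in opposite directions. Apelin (Apln), secreted by sprouting endothelium, had 35.4 and 74.2 against 162 and 134 CPM (-1.44 ± 0.34; -2.06 without progesterone library 2), and its receptor gene Aplnr had 3.28 and 16 against 0.274 and 0.424 CPM (4.79 ± 0.99). The fold change of Aplnr was 3.24 without progesterone library 2 and still had both values above the vehicle libraries. Of 21 endothelial genes tested, 12 lay below both vehicle libraries in progesterone library 1 but not in library 2. Among these, Pecam1 had 35.4 and 91.6 against 72.9 and 62.7 CPM, Cdh5 29.1 and 66.2 against 62.2 and 68.7 and Tek 3.25 and 13.3 against 4.32 and 5.09. In 6 of the 21 both progesterone libraries lay below both vehicle libraries (Apln, Cldn5, Egfl7, Flt1, Sele and Vwf), and in 2, Aplnr and Selp, above them. DESeq2 called Apln, Cldn5 and Vwf lower and Aplnr higher. The list median over 21 genes was -0.22, and it was 0.19 without progesterone library 1 and -0.94 without library 2. Von Willebrand factor (Vwf), stored by endothelium and platelets, had 12.9 and 19.5 against 51.5 and 56.7 CPM (-1.74 ± 0.24, DESeq2 adjusted p = 3.65e-07), and the tight junction gene Cldn5 7.34 and 7.74 against 15.4 and 16.7 CPM (-1.09 ± 0.25). Itgb3, the integrin β3 chain of platelets and sprouting endothelium, had 17.7 and 22.6 against 57 and 51.1 CPM (-1.42 ± 0.2).

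**Figure D4:**
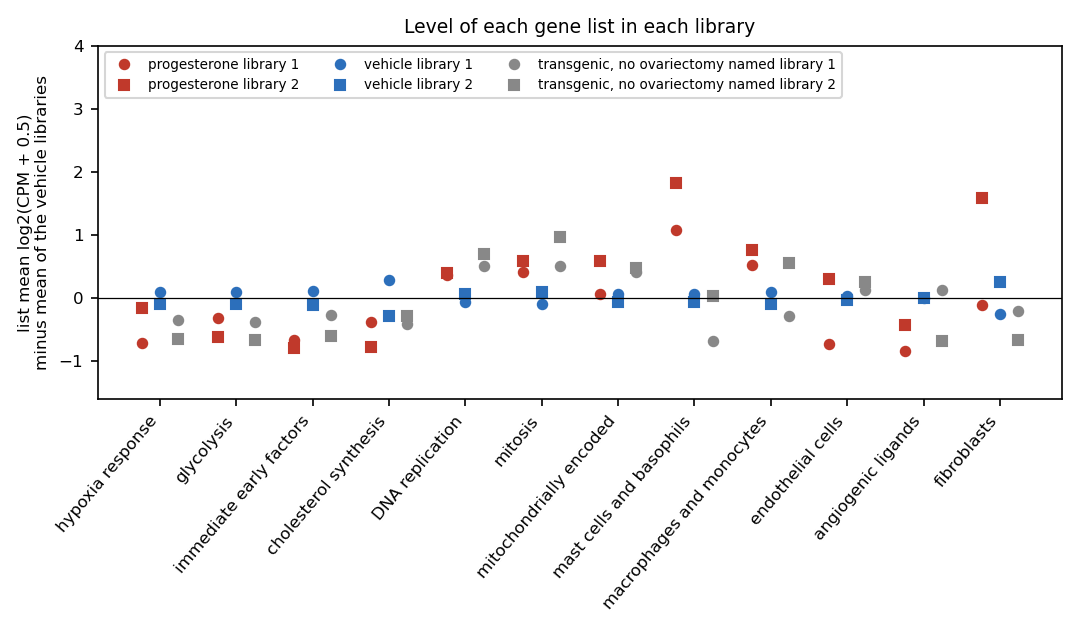
Mean log2(CPM + 0.5) of 12 gene lists in each library, minus the mean of the 2 vehicle libraries. Circles are library 1 and squares library 2 of each group. Both progesterone libraries lie on 1 side of both vehicle libraries for hypoxia, glycolysis, immediate early, cholesterol, both cell cycle lists, mast cells, macrophages and angiogenic ligands, whereas for endothelial cells progesterone library 1 lies below both and library 2 above both.

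Matrix metalloproteinase genes in a cluster on chromosome 9 were lower in the progesterone tumours. Macrophage elastase (Mmp12, 7344381 to 7369499) had 154 and 97.6 CPM in the progesterone libraries and 568 and 458 CPM in the vehicle libraries (-2.03 ± 0.29, DESeq2 adjusted p = 6.43e-08). The stromelysin Mmp10 (7502352 to 7510240) had 7.77 and 4.51 against 36.6 and 97.5 CPM (-3.45 ± 0.58; -2.57 without vehicle library 2). Its relative Mmp3 (7445822 to 7455975) had 369.8 and 197 against 2089 and 2363 CPM (-2.97 ± 0.72). In Mmp12, Mmp10 and Mmp3 both progesterone values lay below both vehicle values. Collagenase 3 (Mmp13) had 13.4 and 15.8 against 29.7 and 98.7 CPM (-2.13; -1.03 without vehicle library 2), and Mmp1b 2.01 and 1.32 against 23.8 and 6.15 CPM. Of the 8 genes of this family on chromosome 9 that passed the filter, 2 were not lower. Mmp8 had 4.33 and 3.23 against 4.25 and 2.7 CPM, and Mmp27 0.966 and 4.51 against 0.172 and 1.01 CPM. Coordinates are from GENCODE on GRCm38. Elsewhere in the genome Mmp14, a membrane-bound member, had 929 and 709 against 977 and 1182 CPM, and urokinase (Plau) 458 and 397 against 934 and 635 CPM. Of 2 proteases abundant in bone-resorbing cells, cathepsin K (Ctsk) had 174 and 126 against 7.03 and 88.7 CPM and Mmp9 182 and 104 against 20.1 and 97.5 CPM, with vehicle library 1 the lowest in each.

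Among genes averaging 5 CPM or more in the progesterone tumours, the largest positive folds came from progesterone library 2 alone. Sfrp2, a secreted Wnt antagonist, had 0.657 and 38.6 CPM in the progesterone libraries and 0.206 and 0 CPM in the vehicle libraries. Mfap5, of elastic microfibrils, had 0.85 and 37.2 against 0.206 and 0 CPM, the adhesion molecule Chl1 1.16 and 36.5 against 0.172 and 0.053, the protease Adamts15 0.502 and 30.6 against 0.0686 and 0.265 and the proteoglycan Prelp 0.27 and 19.8 against 0.103 and 0.106. The ranking took genes above that floor of 5 CPM, without overlap of the groups and with unadjusted p under 0.05. These 5 had the largest positive log2 fold changes in it. In all 5 progesterone library 2 exceeded each other ovariectomized library at least 8-fold. Rarer genes were left out of the ranking. Among them are Siglech and Gdf10, with 0 counts in both vehicle libraries and similar counts in both progesterone libraries. In all, 54 tested genes had at least 5 CPM in that library and at least 8 times the level of each of the other 3, against 1 gene for progesterone library 1, 6 for vehicle library 1 and 4 for vehicle library 2. Of the 54, 49 had an unadjusted p under 0.05, 8 were called by DESeq2, and 18 had a negative fold change once progesterone library 2 was left out. None of the 15 higher genes with the smallest p belonged to them. A ranking by p favours genes whose libraries within a group agree, so this follows in part from the definitions. It does not show that those 15 are free of differences between the progesterone libraries.

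The 54, out of 13632 genes tested, held 4 of the 18 fibroblast genes listed and 3 of the 24 matrix protease genes. They also held 1 gene each of the hypoxia, macrophage, IGF family and iron lists, and none of the other lists. Col1a2, a chain of type I collagen, had 32.2 and 1082 against 14.3 and 9.96 CPM, the gelatinase Mmp2 5.8 and 142 against 2.4 and 4.35 and Pi16, a marker of adventitial fibroblasts, 3.44 and 94.2 against 3.4 and 3.71. Dpp4, which marks the same fibroblasts, had 0.85 and 11.5 against 0.343 and 0 CPM and Clec3b 0.386 and 22 against 0.24 and 0.53. Not every fibroblast gene was high in that library: Dcn had 738 and 617 against 789 and 971 CPM, Pdgfra 166 and 272 against 234 and 321 and Col3a1 3637 and 6934 against 5311 and 8606. The summed level of the 17 fibroblast genes tested was 6248 and 11800 CPM in the progesterone libraries and 7982 and 13080 in the vehicle libraries, so their sum did not set that library apart. Their mean log2(CPM + 0.5), in which each gene has the same weight, was 5.87 and 7.57 against 5.73 and 6.23, with progesterone library 2 the highest. Pericyte and smooth muscle genes summed to 123.3 and 337.2 CPM against 198.4 and 239.0, and adipocyte genes to 19.51 and 48.9 against 10.22 and 19.19. Skeletal muscle genes summed to 34.08 and 22.8 CPM against 29.81 and 29.79, and skin keratinocyte genes to at most 3.445 CPM in any of these libraries. The part that such tissue has in the values of progesterone library 2 was not tested.

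**Figure D5:**
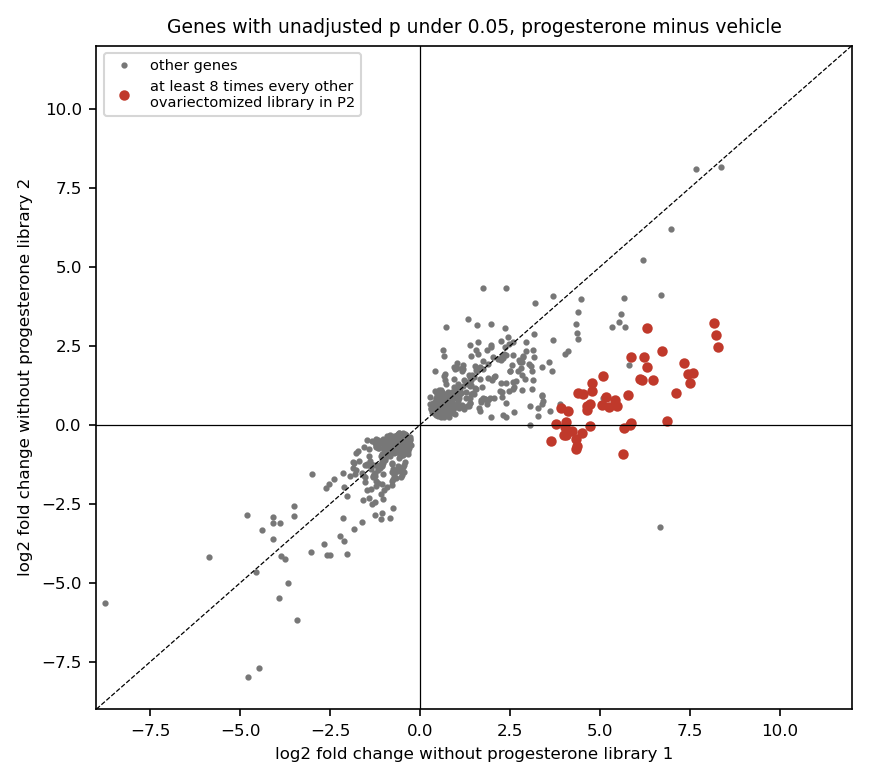
Each point is 1 of the 721 genes with an unadjusted p under 0.05; axes give its log2 fold change without progesterone library 1 (x) and without progesterone library 2 (y), and the dashed line marks equal values. Of these genes 707 keep 1 sign on both axes and 14 do not, and 13 of the 14 belong to the red points, genes at least 8 times higher in progesterone library 2 (P2) than in each other ovariectomized library.

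Single vehicle libraries set other large folds. The 4 genes high in vehicle library 2 alone were Gzmd, Gzme, Gzmf and Gzmg, granzymes of 1 cluster on chromosome 14 (from 56117626 for the start of Gzme to 56211417 for the end of Gzmf). Gzmg had 0.811 and 0.248 CPM in the progesterone libraries and 1.54 and 28.2 CPM in the vehicle libraries (-4.78 on the log2 scale, and -1.53 when vehicle library 2 is left out). Gzmf had 1.12 and 0.538 against 1.96 and 20.9 CPM (-1.23 without it, from -3.77). These granzymes are close copies of each other, so reads may be split among them. Other cytotoxic lymphocyte genes shared the pattern in part. Prf1 was highest in the same library, at 1.7 and 0.662 against 0.961 and 7.58 CPM. So were Gzmc, at 4.44 and 2.07 against 2.16 and 15.9 CPM, and Gzmb, at 1.7 and 1.24 against 1.24 and 4.93 CPM. Gzma and Gzmm were not highest there. Nor were Nkg7, at 0.773 and 0.248 against 0.137 and 0.424 CPM, and Ncr1, at 0.85 and 0.538 against 0.377 and 0.583 CPM.

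The 6 genes high in vehicle library 1 alone included the globin genes Hba-a1, Hba-a2 and Hbb-bt with Alas2 and Slc4a1, and reads of the alpha-globin copies may be shared. Hba-a1, an alpha-globin gene, had 38.5 and 67.4 against 1070.1 and 126 CPM, and Alas2, the erythroid enzyme of haem synthesis, 2.98 and 5.34 against 85.3 and 9.12 CPM. Slc4a1, the red cell anion exchanger, had 0.193 and 0.496 against 12 and 0.583 CPM, and the fold change on the log2 scale went from -4.19 to -0.76 when vehicle library 1 was left out. All 7 erythroid genes tested had both progesterone libraries below both vehicle libraries, with a median of -3.50, which was -3.99 without progesterone library 2 and -1.14 without vehicle library 1. Transgenic library 1 was as high, with 1190.4 and 26.2 CPM of Hba-a1. Sprr1a, a cornified envelope gene, had 0.811 and 0.414 against 10.9 and 3.07 CPM, again with vehicle library 1 highest.

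Several genes outside these groups were among those with the smallest p. Trp53i11 had the smallest p of the whole comparison (5.4e-05 before adjustment), with 50.7 and 61.3 CPM in the progesterone libraries and 142 and 151 CPM in the vehicle libraries (-1.39 ± 0.16, DESeq2 adjusted p = 1.16e-09) and 132 and 118 CPM in the transgenic libraries. Igfbp3, which binds insulin-like growth factors, had 80.2 and 133 against 298 and 324 CPM (-1.55 ± 0.31). Fam167a had 15.8 and 13.5 against 54.5 and 39.9 CPM and Fam78b 17.3 and 14.9 against 38 and 39.7. For all 4 the fold change kept its sign without any 1 library. Absence of overlap between the groups was a condition for naming them, and it nearly fixes that sign. Pmaip1, which encodes the death inducer NOXA, had 5.52 and 3.52 against 23.9 and 16.5 CPM (-2.16 ± 0.54), whereas the other p53 targets were mostly higher, 14 of 19 in all, with a median of 0.25 (-0.01 without progesterone library 1).

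On the higher side, Plxna4, a semaphorin receptor, had 62.1 and 53 against 21.2 and 29.6 CPM (1.18 ± 0.23) and Draxin, an axon guidance protein, 9.5 and 5.83 against 0.72 and 1.59 CPM (2.74 ± 0.55). The phosphatase Ptpn13 had 16.6 and 16.8 against 6.998 and 5.57 CPM (1.41 ± 0.29), and Slc13a3, a carrier of dicarboxylates, 16.1 and 12.8 against 2.16 and 2.54 CPM. Absence of overlap between the groups was a condition for naming these 4 as well. Tenascin X (Tnxb) had 18.2 and 70.2 against 4.53 and 6.63 CPM, Tmem8 15.1 and 30.7 against 2.06 and 4.82 and Serpinb1a, an inhibitor of granulocyte proteases, 4.91 and 13 against 1.44 and 1.59, each higher in progesterone library 2. The fold change of Tnxb was 2.99, and 1.71 without that library, and that of Serpinb1a 2.56 and 1.69. All 30 genes named for the smallest p, 15 in each direction, were among the 75 that DESeq2 called. Both tests used the same counts, so this overlap is no independent support. Without the filter on low counts, edgeR called 24 of the 30.

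Mitochondrially encoded transcripts were higher in part. Of 13, 10 were higher, 8 without overlap, with a median of 0.52 (0.25 without progesterone library 2). The complex I gene mt-Nd4 had 893 and 991 against 613 and 637 CPM, and mt-Nd2 785 and 934 against 518 and 571. The complex III gene mt-Cytb had 3008 and 3179.7 against 2149 and 2171 CPM. The most abundant, mt-Co1, had 6824 and 7246 against 6629 and 6397 CPM, a log2 fold change of 0.11. Nuclear genes of the respiratory chain had a median of 0.11 over 25, and of 0.01 without progesterone library 1 and 0.02 without vehicle library 1.

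Among the other lists, medians were -0.08 for chaperones and co-regulators of steroid receptors (14 genes), -0.08 for the unfolded protein response of the endoplasmic reticulum (18), 0.04 for NRF2 antioxidant genes (19), -0.01 for cell death (21), 0.10 for drug efflux (15) and -0.07 for immune checkpoints (17). Neutrophil genes gave -0.12 over 14, and 0.21 without progesterone library 2 and -0.83 without library 1. Collagens and basement membrane genes had a median of -0.41 over 19, which was -0.08 without progesterone library 1. Of the lung epithelial markers listed as a check on the implanted line, 4 were tested, 3 higher and 1 lower. Both progesterone libraries lay above both vehicle libraries in 2 of them and below both in 1. The median was 0.16, and it was -0.09 without progesterone library 2 and -0.24 without vehicle library 1. The 2 above were Krt8, at 362 and 279.9 against 180.4 and 209 CPM, and Krt18, at 268 and 293 against 212 and 256. Epcam, Krt7, Nkx2-1, Sftpc and Sftpb did not pass the filter on low counts.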

How the data were processed

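RNA from subcutaneous LLC1 tumours was sequenced as 6 libraries, made with a directional library kit from 500 ng of RNA and 11 amplification cycles, per the labels' protocols. The deposited values are raw read counts per gene for 19288 genes. The submitters' processing notes name HISAT2, HTSeq, DESeq and GRCm38.p6, without versions. The strand setting of the counting is not stated in any source used, so antisense and overlapping genes are uncertain. Gene symbols and coordinates were taken from GENCODE vM21 by identifier (19284 genes matched).

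Counts were fitted with edgeR 4.0.16 (R 4.3.3) by the quasi-likelihood test, with TMM scaling, filterByExpr and 1 mean per group over all 6 libraries (13632 genes, 3 residual degrees of freedom), and p-values were adjusted by Benjamini-Hochberg. DESeq2 1.42.0 and limma-voom (limma 3.58.1) were alternatives, with other scalings and filters, a replicate block and each library left out. An exact permutation test of a single gene with 2 libraries against 2 cannot go below p = 0.333, so none is given. The fit was tested on simulated data with the spread estimated from these libraries, in which 200 of 13460 genes were changed. edgeR called 31% of the 2-fold and 85% of the 4-fold changes, DESeq2 57% and 95%, and limma-voom 26% and 82%. Most simulated 2-fold changes were thus missed by edgeR.

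Genes were named by rule: 15 per direction with the smallest unadjusted p and 5 with the largest fold, each reaching 5 CPM in its higher group and without overlap, up to 6 members per gene list by p, receptors and progesterone targets, and genes at 0 counts in 1 group. Other members named as exceptions, as genes of 1 library or as steps of a pathway were chosen after their values were seen. The comparison, its members and the 55 lists were chosen with earlier results of these data known. Promoters are the 250 bases before the start in RefSeq. Replicate libraries differed by more than sampling noise (chi-square per degree of freedom 62.6 for progesterone and 38.1 for vehicle). Some members of the lists are counted but not reported here by name.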

Additional observations from a re-analysis of the deposited data

How the results depend on the processing

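The count of genes called in progesterone against vehicle was 0 by edgeR and under every other alternative planned and in the fit with crossed numbers, and it was 75 by DESeq2 and 92 without the filter on low counts. For progesterone against the transgenic libraries it was 0, with 47 by DESeq2 and 28 without the filter, and 0 in every other alternative run. Without 1 library, genes at an unadjusted p under 0.05 numbered 139 to 591 higher and 132 to 502 lower, against 378 and 343, and 671 and 521 without the filter. The replicate numbers did not pair the libraries, since deviations from group means correlated at -0.125 between progesterone and vehicle, and at -0.174 and 0.0804 between each of them and the transgenic libraries. With the replicate number as a block 0 genes were called, with 337 higher and 303 lower at an unadjusted p under 0.05. With the progesterone numbers crossed, an alternative chosen after seeing the data, 0 genes were called, with 395 higher and 389 lower. With each library left out in turn, list medians ran from -0.75 to -0.49 for hypoxia response, -0.59 to -0.3 for glycolysis, -0.68 to -0.42 for immediate early factors, -0.93 to -0.31 for cholesterol synthesis, 0.29 to 0.41 for DNA replication, 0.39 to 0.65 for mitosis, 2.07 to 3.22 for mast cells and basophils, 0.47 to 0.67 for macrophages and monocytes and -0.82 to -0.5 for angiogenic ligands. The cholesterol and mast cell ranges are set by vehicle libraries, and the cause was not tested. Of 181 named genes, 154 kept the sign of their fold change in every alternative run. Genes whose sign changed without some library, with their ranges, were Cdh5 (-1.17 to 0.01), Esr1 (-1.25 to 0.81), Fkbp5 (-0.13 to 0.02), Fst (-2.12 to 1.61), Fth1 (-0.17 to 0.23), Gata2 (-0.24 to 0.05), Greb1 (-2.2 to 0.67), Hdc (-0.13 to 0.37), Hsp90ab1 (-0.16 to 0.16), Hspa8 (-0.2 to 0.05), Hspb1 (-0.36 to 1.51), Hsph1 (-0.27 to 0.24), Ldha (-0.45 to 0.01), Lox (-0.02 to 5.83), Mmp8 (-0.17 to 0.48), Nkg7 (-0.12 to 1.86), Nr3c2 (-1.12 to 1.17), Paqr7 (-0.56 to 0.22), Pecam1 (-0.94 to 0.43), Pfkfb3 (-0.1 to 0.11), Pfkfb4 (-0.09 to 0.07), Pi16 (-0.05 to 4.73), Prf1 (-2.68 to 0.3), Rora (-0.52 to 1.7), Tek (-0.53 to 1.49), Tlr4 (-0.11 to 0.18), Vegfb (-0.15 to 0.19). Lists whose median took both signs in these fits were steroid receptors (-0.49 to 0.04), progesterone receptor targets (-0.13 to 0.22), steroid synthesis and conversion (-0.03 to 0.39), ER unfolded protein response (-0.2 to 0.03), p53 targets (-0.01 to 0.4), NRF2 antioxidant genes (-0.18 to 0.19), neutrophils (-0.83 to 0.21), endothelial cells (-0.94 to 0.19), fibroblasts (-0.11 to 0.87), pericytes and smooth muscle (-0.61 to 0.85), adipocytes (-0.09 to 1.64), skin keratinocytes (-0.11 to 0.35), nerve and Schwann cells (-0.01 to 0.45), lung epithelial lineage (-0.24 to 0.62), mammary epithelium (-2.41 to 1.37), immune checkpoints and suppression (-0.2 to 0.11), drug efflux (-0.05 to 0.11), circadian clock (-0.39 to 0.06), iron handling (-0.06 to 0.23), cell death (-0.02 to 0.2). Other sign changes were progesterone receptor targets (0.09), steroid synthesis and conversion (-0.09), neutrophils (0.13), NK and cytotoxic cells (-1.04), skeletal muscle (0.07), skin keratinocytes (-0.23) under the setting "at least 10 counts in every library", and progesterone receptor targets (0.02), cell death (0.03), Hsph1 (0.01), Pfkfb4 (0.03) under the setting "upper quartile in edgeR", and skeletal muscle (0.07) under the setting "only the 4 ovariectomized libraries", and Fst (0.02), Nr3c2 (-0.01) under the setting "limma-voom". The cause of these sign changes was not tested. With the replicate block the median of red blood cell genes was -1.97, and -3.50 without it. In the leave-one-out fits the lone library of a group is assumed to vary like the other groups, and 3 counts in the shallowest library equal 0.159 CPM, which limits what can be seen of rare transcripts.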
